A study of Homo sapiens with 6 samples.

Results

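The genes described here are BEST1 and 9 genes of iron handling, FTH1, FTL, TFRC, SLC40A1, SLC11A2, IREB2, ACO1, NCOA4 and HMOX1. They were taken by name from the deposited gene table, and the 10 genes make up 10 of its 58735 rows. BEST1 was selected on its fold change between the conditions compared here, for its large fall, so its values are given as a description and without a test. The other 9 were named for their roles in iron handling, with earlier results of the same libraries known. Of the 10 genes, 9 passed the filter on low counts (at least 10 counts in at least 3 libraries) and SLC40A1 did not.

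The libraries came from LoVo, an established human colorectal cancer cell line. In 3 samples the cells had received a control siRNA (si-NC) and in 3 others one that targets SRSF11 (si-SRSF11), a serine/arginine-rich splicing factor, to learn which transcripts depend on it. Poly(A) RNA was read in pairs of 150 bp, and the authors deposited the reads counted on each gene. Both conditions are transient transfections of 1 cell line, the labels do not say whether the replicates were separate cultures while the study calls them pairs of independent RNA samples, and p-values measure the spread between these samples, which may be technical.

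The 6 libraries held 14369525 to 16685719 counts. SRSF11, the targeted gene, averaged 86.3 ± 1.89 CPM (counts scaled to a common library size; SD, n = 3) under si-NC against 49.4 ± 0.950 CPM (SD, n = 3) under si-SRSF11, so the libraries followed their labels. Of 12 markers of colorectal epithelium, 11 had at least 10 counts in every library. The summed level of the 12 was 6144 to 6440 CPM in si-NC and 6094 to 6400 CPM in si-SRSF11. Most of it came from KRT8, KRT18 and KRT19, which averaged 3134, 1177 and 743 CPM in si-NC. KRT20, CEACAM5 and GPA33 were near the floor, at 0.699, 1.06 and 0.900 CPM in si-NC and 0.814, 0.826 and 1.04 CPM in si-SRSF11. Genes of the mitochondrial genome took 7.003% to 7.25% of the counts in si-NC and 8.29% to 8.51% in si-SRSF11, and the part of this shift in the results below was not tested.

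Cells take up iron that is bound to transferrin through the transferrin receptor (TFRC), and they store what they do not use inside ferritin, a hollow shell built of heavy (FTH1) and light (FTL) chains. When iron is scarce, the iron regulatory proteins IRP1 (ACO1) and IRP2 (IREB2) bind a short hairpin in mRNA, the iron-responsive element. A hairpin in the 5′ UTR, as in both ferritin mRNAs and in that of the exporter ferroportin (SLC40A1), then blocks translation, whereas hairpins in the 3′ UTR of TFRC mRNA protect it from decay. BEST1 is of another class. It encodes bestrophin-1, a calcium-activated chloride channel best known from the retinal pigment epithelium, and it is included because its gene lies against that of FTH1 on chromosome 11.

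The hairpins of the ferritin, ferroportin and transferrin receptor mRNAs are printed because they are the sequence that these members of the pathway share. The other members, among them HMOX1, IREB2 and BEST1, are not shown with one. Each is written 5′ to 3′ as the mRNA reads, with T for U, and the capitals mark the loop that the iron regulatory proteins recognise.
FTH1 5′ UTR: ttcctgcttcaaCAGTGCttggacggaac
FTL 5′ UTR: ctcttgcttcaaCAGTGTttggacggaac
SLC40A1 5′ UTR: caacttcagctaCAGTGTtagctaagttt
TFRC 3′ UTR, nearest the coding region: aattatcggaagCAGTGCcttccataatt
TFRC 3′ UTR, next: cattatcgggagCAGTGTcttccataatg
TFRC 3′ UTR, next: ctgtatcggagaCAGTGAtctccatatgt
TFRC 3′ UTR, nearest the mRNA end: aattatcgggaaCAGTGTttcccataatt
In GRCh38 the FTH1 element lies at chr11:61967574-61967602 on the minus strand and the FTL element at chr19:48965335-48965363 on the plus strand. The SLC40A1 element lies at chr2:189580661-189580689 on the minus strand. The TFRC elements that matched the search given below, also on the minus strand, lie at chr3:196050979-196051007, chr3:196050575-196050603, chr3:196050510-196050538 and chr3:196050463-196050491.

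These elements were found by a search of the sense strand of GENCODE 29 transcripts for a C, 5 bases, CAGTG with 1 more base, and 5 bases, where the 5 bases on either side of the loop can all pair. A match of this kind stood in a UTR of 126 of 12747 genes scanned (0.988%). In 23 of these genes at least 4 of the 6 bases below the bulged C could pair as well, and FTH1, FTL, SLC40A1 and TFRC are among them. No match to these letters was found in SLC11A2, which says nothing about binding. A hairpin with other loop letters, or with a mismatch or bulge in the 5 pairs next to the loop, would be missed in any gene. The TFRC sites printed therefore need not be all of its elements.

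Ferritin mRNA was lower and transferrin receptor mRNA was higher in si-SRSF11. Of the 8 tested members other than BEST1, 5 passed an adjusted p under 0.05 in edgeR's quasi-likelihood test (62.5%), where 24.6% of the 15801 tested genes did. TFRC and IREB2 were higher (13.2% of all tested genes were), and FTH1, FTL and HMOX1 were lower (11.4% of all tested genes were). SLC11A2, ACO1 and NCOA4 did not pass. In bulk RNA, a change in the number of cells that make an mRNA and a change in the amount per cell cannot be told apart. The groups did not overlap for 6 of these 8 genes, and they did not overlap for 38.8% of all tested genes.

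**Figure D1:**
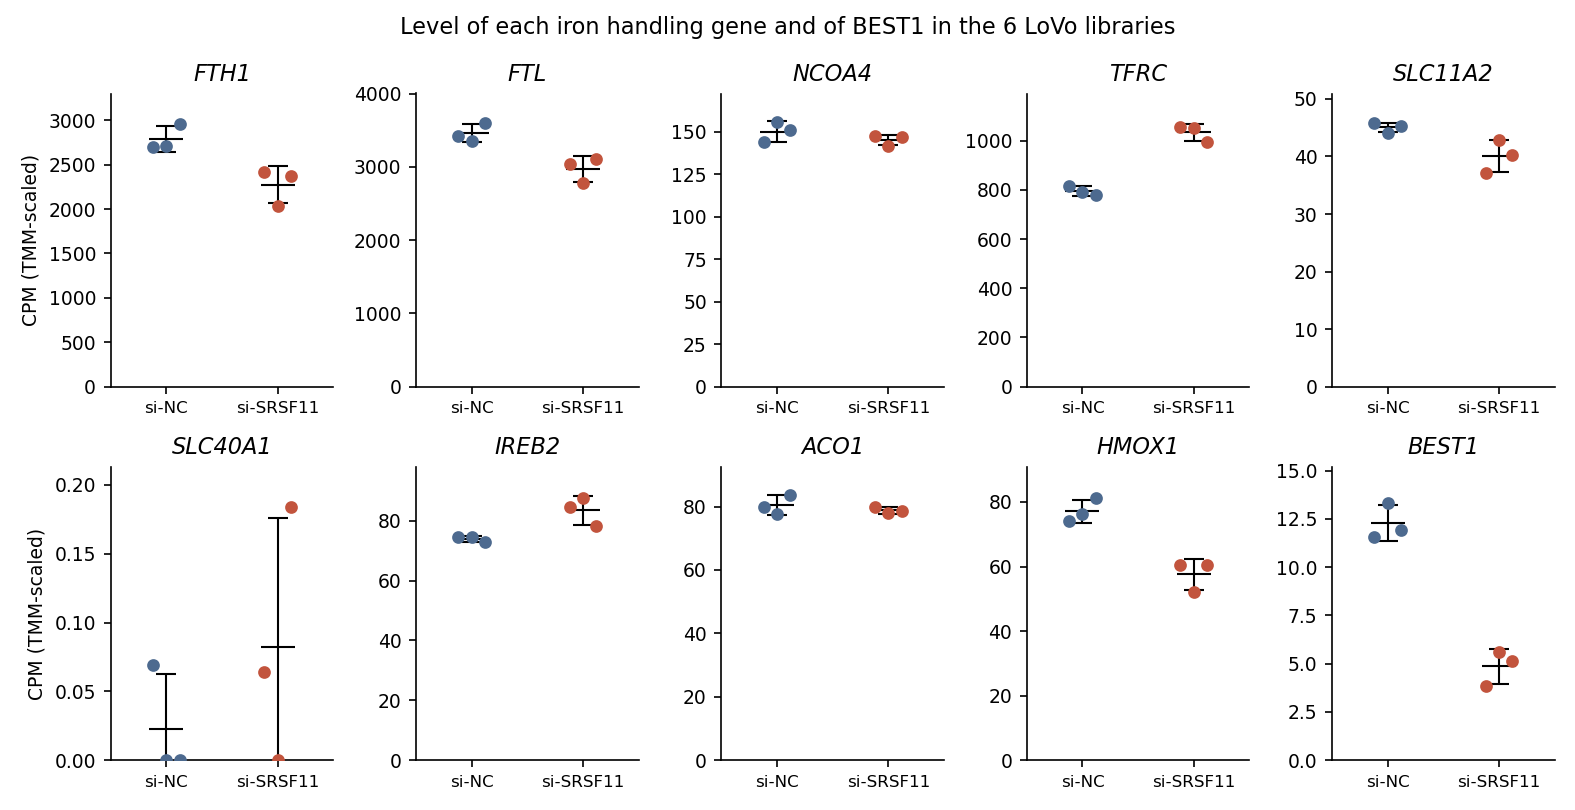
Level of each of the 10 genes in CPM (y axis, own scale in each panel, starting at 0) in the 3 si-NC and the 3 si-SRSF11 libraries, with points for libraries and bars for the mean ± SD. The 3 si-SRSF11 libraries lie below the 3 si-NC libraries for BEST1, FTH1, FTL, HMOX1 and SLC11A2 and above them for TFRC and IREB2.

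The ferritin chains were by far the most abundant of these mRNAs per length. In si-NC, FTL stood at 3942 CPM per kb of exon and FTH1 at 1373 CPM per kb, ahead of TFRC at 101 CPM per kb. NCOA4 followed at 36.8, HMOX1 at 32.0, ACO1 at 10.6, IREB2 at 6.85, SLC11A2 at 4.44 and BEST1 at 1.37 CPM per kb. FTH1 and FTL together took 0.618% to 0.659% of all counts of a library in si-NC and 0.475% to 0.545% in si-SRSF11.

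FTH1 (ENSG00000167996, chr11:61959718-61967660, minus strand), the chain that oxidises iron as it enters the shell, stood at 2699.7, 2706 and 2955 CPM in the si-NC libraries and at 2417, 2034 and 2370.1 CPM in the si-SRSF11 libraries. The groups did not overlap, and si-SRSF11 replicate 2 was the lowest library. The mean went from 2787 ± 145 to 2274 ± 209 CPM (SD, n = 3 each). This is a log2 fold change of -0.29 (SE 0.053, edgeR adjusted p = 0.00029), and the level fell by 18.4%.

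FTL (ENSG00000087086, chr19:48965301-48966878, plus strand), the chain that helps the iron core to form, stood at 3426, 3359 and 3597 CPM in si-NC and at 3036, 2776 and 3111 CPM in si-SRSF11. No si-SRSF11 library reached the lowest si-NC library, and replicate 2 was again the lowest. From 3461 ± 123 CPM, the mean went to 2974 ± 176 CPM (SD, n = 3 each). The log2 fold change was -0.22 (SE 0.043, edgeR adjusted p = 0.00073), and the level fell by 14.1%.

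Within a library, the ratio of FTH1 to FTL counts was 0.788, 0.805 and 0.821 in si-NC and 0.796, 0.733 and 0.762 in si-SRSF11. The groups overlapped at si-SRSF11 replicate 1. The mean log2 ratio differed by -0.08 (p = 0.20 in the two-sided exact permutation test), and a shift between the chains was not shown.

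Both ferritin genes have many near-identical processed copies in the genome, between which reads could be split. The 25 rows named as FTH1 pseudogenes together held 391 to 472 counts per library, which is 0.963% to 1.30% of the FTH1 count, and the 16 FTL pseudogene rows held 0.0883% to 0.123% of the FTL count. Adding them to their parents left the log2 differences at -0.29 for FTH1 and at -0.22 for FTL (p = 0.10 for each in the two-sided exact permutation test, which cannot go lower with 3 samples against 3). Of the pseudogenes, 4 of FTH1 and 2 of FTL were tested and 0 passed in edgeR, with 1 below an unadjusted p of 0.05, FTLP3. The 3 with most counts for FTH1 were FTH1P7 with a log2 fold change of 0.12 (edgeR adjusted p = 0.51), FTH1P8 with -0.11 (edgeR adjusted p = 0.61) and FTH1P2 with 0.03 (edgeR adjusted p = 0.91). For FTL they were FTLP3 with -0.59 (edgeR adjusted p = 0.11), FTLP12 with -0.20 (edgeR adjusted p = 0.76) and FTLP14, which had 1 to 10 counts per library and was not tested.

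NCOA4 (ENSG00000266412, chr10:46005088-46030714, minus strand), the receptor that carries ferritin to the lysosome to free its iron, went from 150.2 ± 5.97 CPM in si-NC to 145 ± 2.97 CPM in si-SRSF11 (SD, n = 3 each). The groups overlapped, with a log2 fold change of -0.05 (SE 0.048, edgeR adjusted p = 0.52). Among the 9 genes listed for iron storage and iron chaperones, members included, 8 were tested. By edgeR's adjusted p 4 were lower (50%, where 11.4% of all tested genes were) and 0 were higher (13.2% of all tested genes were). At an unadjusted p under 0.05, 0 were higher. In DESeq2, 3 were lower by adjusted p. Besides the ferritin chains, the lower genes were PCBP4 and PCBP1, of a family of poly(rC)-binding proteins in which PCBP1 hands iron to ferritin. PCBP4 went from 75.6 ± 1.09 to 58.7 ± 5.92 CPM (SD, n = 3 each), a log2 fold change of -0.36 (edgeR adjusted p = 0.00023). PCBP1 had a log2 fold change of -0.15 (edgeR adjusted p = 0.044). Its call was lost in DESeq2, without any 1 of the si-NC libraries and without si-SRSF11 replicate 1 (adjusted p up to 0.16).

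On the uptake side, TFRC (ENSG00000072274, chr3:196027183-196082189, minus strand) stood at 817, 790.4 and 779 CPM in the si-NC libraries and at 1055, 1053 and 994 CPM in the si-SRSF11 libraries. The lowest si-SRSF11 library lay above the highest si-NC library. The mean rose from 795 ± 19.5 CPM (SD, n = 3) to 1034 ± 34.4 CPM (SD, n = 3), 1.30-fold. The log2 fold change of 0.38 (SE 0.043, edgeR adjusted p = 1.2e-06) was the largest rise among the 9 tested members.

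The ratio of TFRC to FTH1 counts needs no scaling between libraries. It was 0.303, 0.292 and 0.264 in si-NC and 0.437, 0.518 and 0.420 in si-SRSF11. All 3 si-SRSF11 ratios lay above all 3 si-NC ratios. The mean was 0.286 ± 0.0202 (SD, n = 3) against 0.458 ± 0.0523 (SD, n = 3), a log2 difference of 0.67 (two-sided exact permutation p = 0.10, the lowest this design can give).

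**Figure D2:**
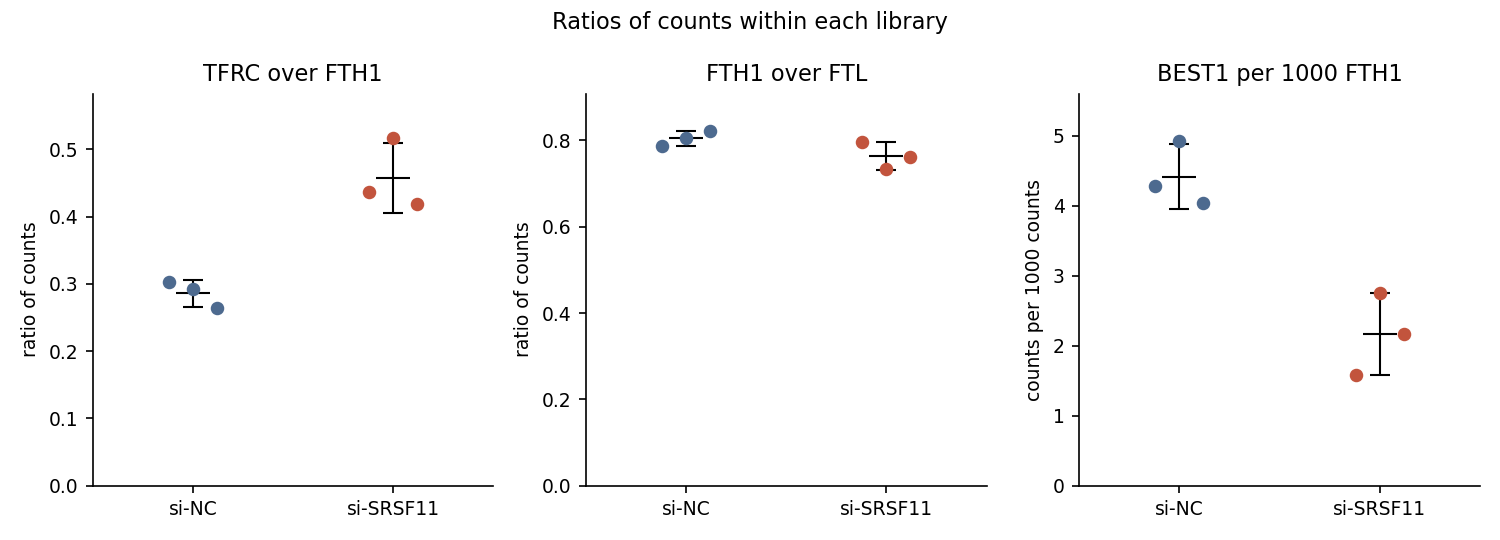
Ratios of counts within each library (y axes, starting at 0) for the 3 si-NC and 3 si-SRSF11 libraries, with points for libraries and bars for the mean ± SD. TFRC over FTH1 is 0.264 to 0.303 in si-NC and 0.420 to 0.518 in si-SRSF11, FTH1 over FTL overlaps between the conditions, and BEST1 per 1000 FTH1 counts is 4.03 to 4.93 in si-NC and 1.58 to 2.75 in si-SRSF11.

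SLC11A2 (ENSG00000110911, chr12:50979401-51028566, minus strand), which encodes DMT1, the transporter that moves ferrous iron out of the endosome and from the gut lumen, stood at 45.8, 44.1 and 45.2 CPM in si-NC and at 37.2, 42.8 and 40.2 CPM in si-SRSF11. The groups did not overlap, but the log2 fold change of -0.17 (SE 0.066, edgeR adjusted p = 0.067) did not pass. It did pass without si-SRSF11 replicate 2 (adjusted p = 0.040) and under 3 other settings given with the processing.

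Of the 14 listed genes of iron uptake 11 were tested, 2 were higher and 1 was lower (27.3%, where 24.6% of all tested genes passed). Their median log2 fold change was 0.17 against 0.00 over all tested genes. STEAP3, the endosomal ferrireductase that works between TFRC and DMT1, stood at 19.96, 19.2 and 21.7 CPM in si-NC and at 39.7, 33.2 and 30.9 CPM in si-SRSF11. Its groups were well apart, with a log2 fold change of 0.77 (SE 0.092, edgeR adjusted p = 2.1e-06). LCN2, which binds iron-loaded siderophores, was lower with a log2 fold change of -1.5 (SE 0.52, edgeR adjusted p = 0.037) on only 9, 14 and 23 counts in si-NC and 4, 11 and 2 in si-SRSF11. Its groups overlapped, its call was lost without si-SRSF11 replicate 1 or 3 and in DESeq2 (adjusted p up to 0.13), and it failed the filter on low counts without si-NC replicate 2 or 3 or si-SRSF11 replicate 2. Transferrin itself (TF) had 5 to 9 counts in si-NC and 3 to 5 in si-SRSF11 and was not tested.

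The exporter itself was close to silent in these cells. SLC40A1 (ENSG00000138449, chr2:189560579-189583758, minus strand), the ferroportin gene and the known exporter of iron from cells, had 1, 0 and 0 counts in si-NC and 1, 0 and 3 in si-SRSF11, so no fold change is given and a difference was not detectable at this depth. Hepcidin (HAMP), the hormone that removes ferroportin, had 4, 1 and 0 counts in si-NC and 0 in each si-SRSF11 library. Ceruloplasmin (CP), a ferroxidase that assists export, had 1 count in all 6 libraries together. Hephaestin (HEPH), the related ferroxidase of gut cells, named after its values were seen, was present at 16.8 ± 0.843 CPM in si-NC and 19.9 ± 0.866 CPM in si-SRSF11 (SD, n = 3 each). Its groups did not overlap, with a log2 fold change of 0.24 (edgeR adjusted p = 0.055). Of the 11 listed genes of export and hepcidin control 5 were tested, and 1 was higher (20%, where 24.6% of all tested genes passed). This was the BMP receptor gene BMPR1A with a log2 fold change of 0.21 (edgeR adjusted p = 0.025). Its call was lost under 7 of 14 other settings, among them DESeq2 and the fits without si-NC replicate 1 or 2 or si-SRSF11 replicate 1 or 2 (adjusted p up to 0.14).

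Of the regulators, IREB2 (ENSG00000136381, chr15:78437431-78501456, plus strand) stood at 74.6, 74.5 and 72.8 CPM in si-NC and at 84.4, 87.7 and 78.2 CPM in si-SRSF11. The groups did not overlap, and the mean went from 74.0 ± 1.03 to 83.4 ± 4.84 CPM (SD, n = 3 each). The log2 fold change was 0.17 (SE 0.055, edgeR adjusted p = 0.024). This call was lost without any 1 of the si-NC libraries or without si-SRSF11 replicate 1 or 2 (adjusted p from 0.051 to 0.12). It held without si-SRSF11 replicate 3 (adjusted p = 0.0042). The log2 fold change stayed between 0.14 and 0.21 in these fits. Over all genes 2741, 3009 and 2852 passed without si-NC replicate 1, 2 and 3, in place of 3885. What part the smaller number of libraries had in the lost call was not tested.

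ACO1 (ENSG00000122729, chr9:32384603-32454769, plus strand), which serves as an aconitase when iron is plentiful, averaged 80.4 ± 3.09 CPM in si-NC and 78.8 ± 0.991 CPM in si-SRSF11 (SD, n = 3 each). Its groups overlapped, with a log2 fold change of -0.03 (SE 0.052, edgeR adjusted p = 0.72). FBXL5, the iron sensor that marks IRP2 for degradation, had a log2 fold change of 0.09 (edgeR adjusted p = 0.49).

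Among 13 listed genes of the iron regulatory proteins and the mRNAs they bind, 11 were tested, 3 were higher and 4 were lower. This is 63.6%, members included, where 24.6% of all tested genes passed. The median log2 fold change was -0.03. Beyond the members, CDC14A, a phosphatase with a hairpin of this form in a 3′ UTR, went from 18.0 ± 0.851 to 13.0 ± 2.35 CPM (SD, n = 3 each). Its log2 fold change was -0.46 (SE 0.12, edgeR adjusted p = 0.0049), opposite in sign to that of TFRC. CDC42BPA, a kinase, had a log2 fold change of 0.18 (edgeR adjusted p = 0.032). Its call was lost in DESeq2 and with scaling by library size alone. It was also lost without any 1 of the si-NC libraries or without si-SRSF11 replicate 1 or 2 (adjusted p up to 0.17). EPAS1, named after its values were seen, had a log2 fold change of -0.20 (edgeR adjusted p = 0.046). That call was lost in DESeq2, without any 1 of the si-NC libraries and without si-SRSF11 replicate 3 (adjusted p up to 0.20).

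Of the 23 genes whose searched hairpin also had at least 4 of the 6 lower pairs, 7 had it in a 5′ UTR. Of these 7, 6 were tested, 2 (ADGRD1 and ENC1) were higher and 2, the ferritin chains, were lower. In a 3′ UTR a hairpin of this stricter form stood in 16 tested genes, of which 2 (TFRC and GPC1) were higher and 1 (CDC14A) was lower. ADGRD1, ENC1 and GPC1 are named after their values were seen. The median log2 fold changes were -0.06 for the 5′ UTR and -0.04 for the 3′ UTR, and genes on both sides of 0 passed in each. Of all tested genes, 13.2% were higher and 11.4% were lower. The search reads letters and pairing only, and most of these genes are not known to bind iron regulatory proteins.

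**Figure D3:**
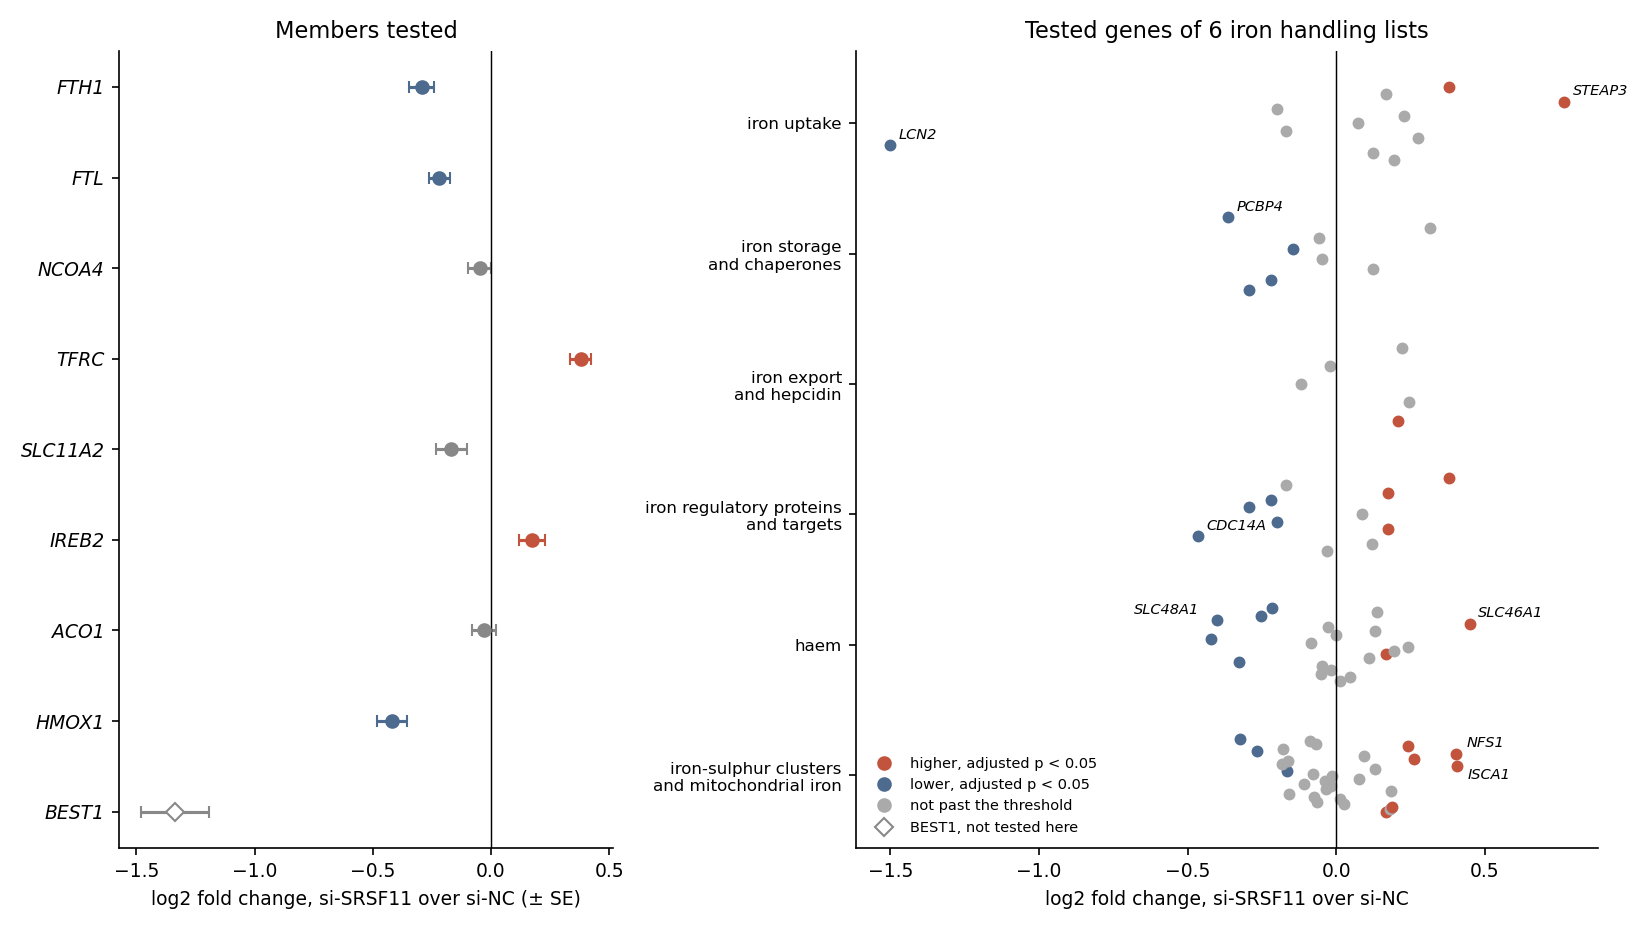
Log2 fold change of si-SRSF11 over si-NC for the tested members with error bars of ± SE, and for the tested genes of each iron list, with colour for those past an edgeR adjusted p of 0.05. BEST1 lies at -1.33 and the other members between -0.42 and 0.38, while the lists spread to both sides of 0.

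HMOX1 (ENSG00000100292, chr22:35380361-35394214, plus strand) encodes haem oxygenase 1, which opens haem and releases its iron. It stood at 74.0, 76.1 and 81.1 CPM in si-NC and at 60.5, 52.1 and 60.4 CPM in si-SRSF11. The highest si-SRSF11 library lay below the lowest si-NC library. The mean went from 77.1 ± 3.66 to 57.6 ± 4.82 CPM (SD, n = 3 each), a log2 fold change of -0.42 (SE 0.063, edgeR adjusted p = 3.7e-05), and the level fell by 25.2%.

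Among 21 listed genes of haem synthesis, transport and breakdown 20 were tested, 2 were higher and 5 were lower. This is 35.0%, where 24.6% of all tested genes passed. BLVRB, 1 of the 2 listed biliverdin reductases, was lower with a log2 fold change of -0.33 (edgeR adjusted p = 7.8e-05). The other, BLVRA, had overlapping groups and a log2 fold change of -0.05 (edgeR adjusted p = 0.64). SLC48A1, which carries haem out of the endolysosome, went from 119 ± 3.93 to 89.9 ± 4.47 CPM (SD, n = 3 each), a log2 fold change of -0.40 (edgeR adjusted p = 5.8e-06). TMEM14C and UROS, of the synthesis path, were lower by log2 fold changes of -0.25 (edgeR adjusted p = 0.0015) and -0.21 (edgeR adjusted p = 0.0058).

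The other direction was taken by SLC46A1, a proton-coupled folate transporter that also moves haem, which rose from 33.4 ± 1.18 to 45.6 ± 1.87 CPM (SD, n = 3 each), a log2 fold change of 0.45 (edgeR adjusted p = 2.9e-05). FECH, which inserts iron into haem, had 0.17 (edgeR adjusted p = 0.016), lost without si-NC replicate 2 or 3 (adjusted p up to 0.097). ALAS1, which starts the synthesis path outside red cells, had -0.05 (edgeR adjusted p = 0.52).

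Iron-sulphur cluster assembly and mitochondrial iron made up 31 listed genes, of which 30 were tested, 6 were higher and 3 were lower. This is 30%, where 24.6% of all tested genes passed. The higher genes not named below each lost their call in some of the 14 other settings. NFS1, the cysteine desulfurase that supplies the sulphur, stood at 26.4, 27.6 and 28.5 CPM in si-NC and at 36.4, 36.4 and 36.3 CPM in si-SRSF11, a log2 fold change of 0.40 (edgeR adjusted p = 0.00020). ISCA1, a late assembly factor, was higher by 0.41 on the log2 scale (edgeR adjusted p = 8.4e-05), and NUBP2, a scaffold in the cytosol, by 0.24 (edgeR adjusted p = 0.0018). SLC25A37, mitoferrin-1, which imports iron into mitochondria, was lower with -0.32 (edgeR adjusted p = 4.9e-05). HSPA9, the mitochondrial chaperone, had -0.17 (edgeR adjusted p = 0.0055), and NFU1, a cluster carrier, had -0.27 (edgeR adjusted p = 0.012), lost without si-NC replicate 3 (adjusted p = 0.079).

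Over the 93 different genes of these lists, 81 were tested, 13 were higher and 15 were lower, 34.6% in all. Without the members, 73 were tested and 23 passed, 31.5%, which is nearer to the 24.6% of all tested genes. The median log2 fold change over the 81 genes was -0.01. The count of higher genes was the less steady of the 2, falling to 7 without si-NC replicate 1 or 2 and to 8 without si-NC replicate 3.

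BEST1 (ENSG00000167995, chr11:61949821-61965515, plus strand) was counted 168, 203 and 186 times in the si-NC libraries and 60, 91 and 84 times in the si-SRSF11 libraries. In CPM it stood at 11.6, 13.3 and 11.9 in si-NC and at 3.83, 5.59 and 5.14 in si-SRSF11. The highest si-SRSF11 library was below the lowest si-NC library, as the choice of the gene for its fall would have it. On average it went from 12.3 ± 0.936 to 4.85 ± 0.914 CPM (SD, n = 3 each), which is 39.6% of the si-NC level and a log2 fold change of -1.33 (SE 0.14).

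BEST1 and FTH1 face each other from opposite strands and their 3′ ends cross. The bounds of the genes overlap by 5798 bases, and 1267 exon bases are annotated in both, which is 14.2% of the 8930 exon bases of BEST1 and 62.4% of the 2030 exon bases of FTH1. Of the 8 annotated BEST1 transcripts, 5 share a base with FTH1 exons. Of the remaining BEST1 exon bases, 4357 lie within the bounds of FTH1 but outside its exons. Counting introns of the FTH1 transcript ENST00000273550.11 alone, only 351 BEST1 exon bases lie in them. Neither the labels nor the methods state that the libraries or the counting kept strand, so reads of the shared bases cannot be told apart between the genes. The values of both are uncertain by an amount that was not measured. The shares of bases do not give its size, because BEST1 had 60 to 203 counts per library and FTH1 33121 to 46111. Any misplaced reads would weigh far more on BEST1. No other member shares an exon base with another gene.

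**Figure D4:**
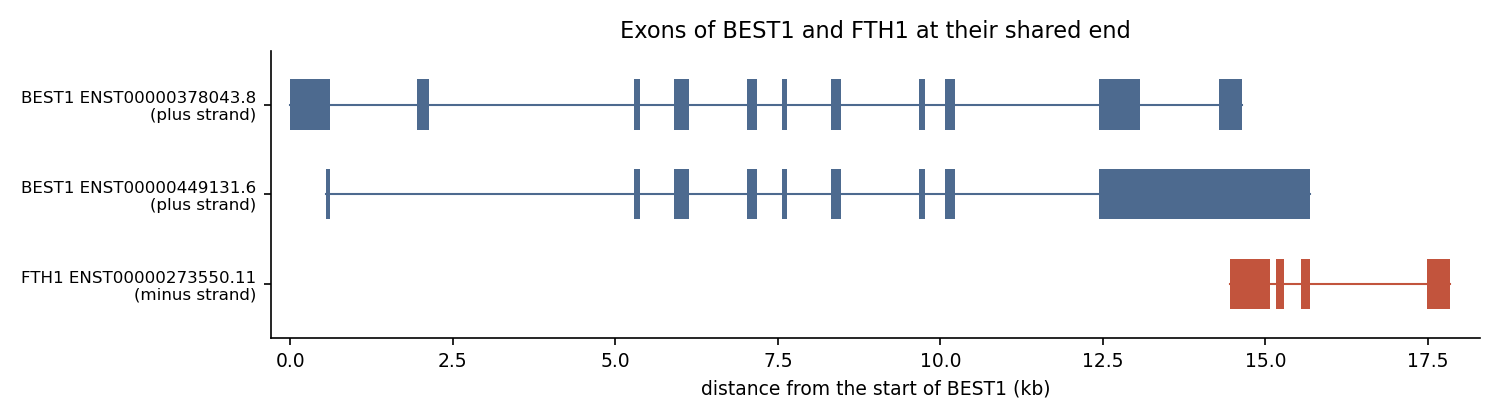
BEST1 transcripts ENST00000378043.8 and ENST00000449131.6 (plus strand) and FTH1 transcript ENST00000273550.11 (minus strand), by distance from the start of BEST1 in kb (x axis). Boxes are exons and lines are introns, drawn to scale. The FTH1 transcript drawn shares 880 bases with BEST1 exons, toward the 3′ ends of both genes. The 1267 shared bases given in the text are counted over all annotated transcripts.

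FTH1 had far more counts than BEST1, and the 2 were set side by side within each library. BEST1 had 4.28, 4.93 and 4.03 counts per 1000 FTH1 counts in si-NC and 1.58, 2.75 and 2.17 in si-SRSF11. All 3 si-SRSF11 values lay below all 3 si-NC values, as the choice of BEST1 for its fall would have it. The mean values were 4.41 ± 0.461 and 2.17 ± 0.582 (SD, n = 3 each). The libraries did not rank alike, since si-SRSF11 replicate 2 had the lowest FTH1 and the highest BEST1 of the si-SRSF11 libraries.

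Around BEST1, 46 other genes reach into the 500 kb on either side of it, and 18 of them were tested. Of the 18, 4 were lower (22.2%) and 0 were higher by edgeR's adjusted p, with 0 higher at an unadjusted p under 0.05 and 0 higher in DESeq2, and the median log2 fold change was -0.00. The 4 are FTH1 and the 3 next genes with a tested count upstream of BEST1 other than FADS2. RAB3IL1 (chr11:61897301-61920269), whose product acts on Rab GTPases of vesicle traffic, went from 32.3 ± 2.35 to 25.3 ± 1.30 CPM (SD, n = 3 each), a log2 fold change of -0.35 (edgeR adjusted p = 0.0021).

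FADS3 (chr11:61873519-61892051), of the fatty acid desaturase family, stood at 127, 132 and 131 CPM in si-NC and at 98.4, 97.0 and 94.9 CPM in si-SRSF11. Its log2 fold change of -0.43 (SE 0.047, edgeR adjusted p = 6.4e-07) was the largest fall of the 4. FADS1 (chr11:61799625-61829318), the delta-5 desaturase, had -0.18 (edgeR adjusted p = 0.019), lost without any 1 of the si-NC libraries or without si-SRSF11 replicate 2 (adjusted p up to 0.076). FADS2, the delta-6 desaturase, whose gene spans part of FADS1, had 0.06 (edgeR adjusted p = 0.68).

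On the far side of FTH1, AP003733.4 had a log2 fold change of 0.13 (edgeR adjusted p = 0.76) at under 5 CPM in each library. INCENP, of the chromosomal passenger complex, had -0.14 (edgeR adjusted p = 0.090), and ASRGL1, an asparaginase, had -0.14 (edgeR adjusted p = 0.35). In a window of 1000 kb on either side, 55 genes were tested, of which 9 were lower and 1 was higher (18.2%), and within 200 kb 11 were tested, of which 4 were lower (36.4%). Set against the 11.4% of all tested genes that were lower, the share lower was thus 36.4% within 200 kb, 22.2% within 500 kb and 16.4% within 1000 kb, and the same 4 genes make up the first and the second of these counts.

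**Figure D5:**
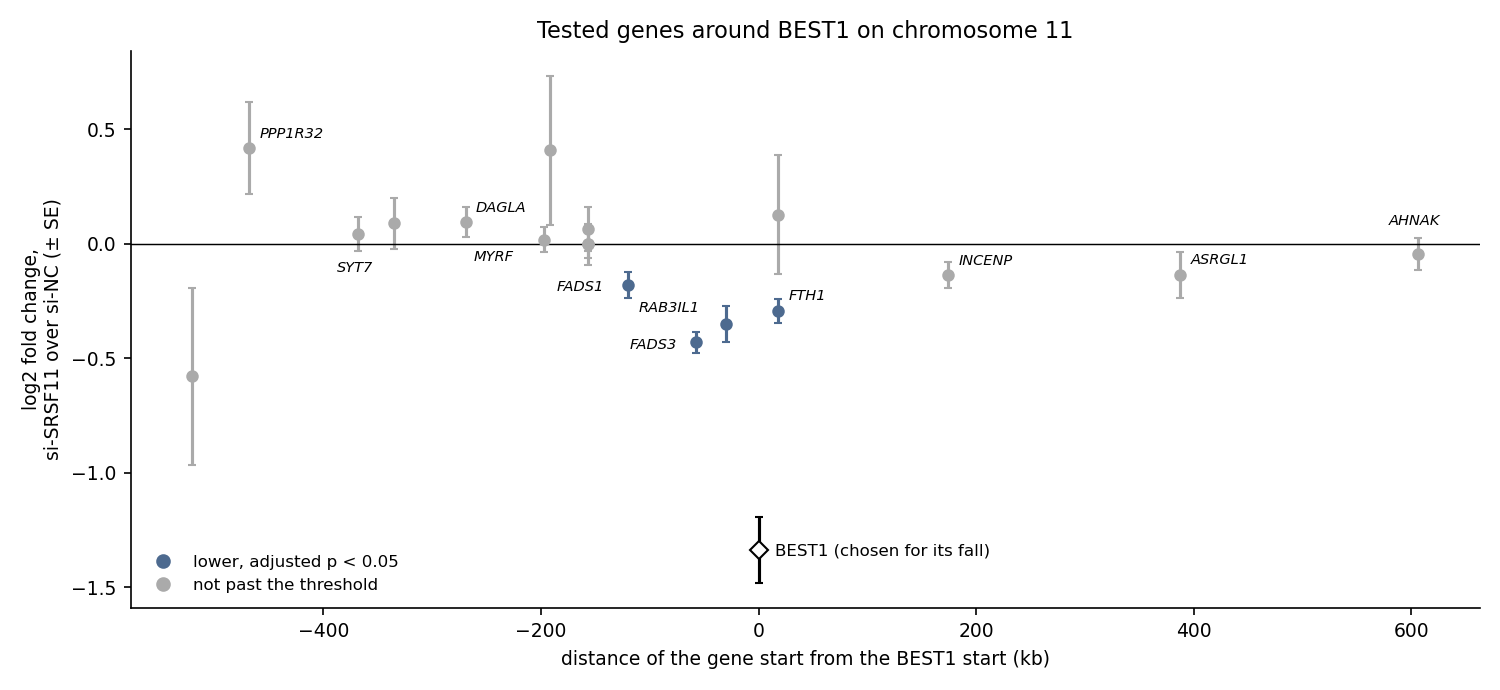
Log2 fold change of si-SRSF11 over si-NC (y axis, bars ± SE) for BEST1 and the 18 tested genes within 500 kb of it, by the distance of the gene start from that of BEST1 in kb (x axis), with colour for an edgeR adjusted p under 0.05. The 4 lower genes, FADS1, FADS3, RAB3IL1 and FTH1, lie between -120.5 and 17.8 kb and between -0.43 and -0.18, far above BEST1 at -1.33.

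The other bestrophins were scarcely counted. BEST2 had 11, 5 and 5 counts in si-NC and 5, 2 and 4 in si-SRSF11, and BEST3 had 1 to 5 counts per library, so neither was tested. BEST4, a bestrophin of a subset of gut epithelial cells, had 10, 12 and 9 counts in si-NC and 22, 11 and 17 in si-SRSF11, with overlapping groups and a log2 fold change of 0.60 (SE 0.40, edgeR adjusted p = 0.29). The markers of the retinal pigment epithelium, where BEST1 is best known, summed to 34.1 to 35.1 CPM in si-NC and to 29.9 to 36.3 CPM in si-SRSF11, with TYR, LRAT and OTX2 at 0 in all 6 libraries. RPE65, a defining gene of that tissue, was present and higher, at 6.88 ± 0.935 CPM in si-NC and 10.1 ± 1.27 CPM in si-SRSF11 (SD, n = 3 each; log2 fold change 0.56, edgeR adjusted p = 0.0049). The other 4 tested markers of that tissue had log2 fold changes below 0 and did not pass, from PMEL at -0.39 (edgeR adjusted p = 0.054) and MITF at -0.26 (edgeR adjusted p = 0.13) to SERPINF1 at -0.19 and RDH5 at -0.05. The median over the 5 was -0.19. RPE65 and these markers are named after their values were seen.

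The genes whose log2 CPM followed BEST1 most closely over the 6 libraries were AL022328.3, KCTD9, SMUG1, GNAZ and EMC3, with Pearson's r of 0.997 to 0.998. Those closest to FTH1 were TRMT1, ERI1, MLST8, PSPH and COPS7A, with r of 0.994 to 0.999. These are descriptions picked as the highest of 15801 correlations over 6 points in 2 conditions. Of these 10 genes, AL022328.3, annotated as antisense, came nearest to BEST1 in size, with 1.28 to 1.51 CPM in si-NC and 0.383 to 0.614 CPM in si-SRSF11, while KCTD9 had a log2 fold change of -0.18.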

How the data were processed

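Polyadenylated RNA of LoVo cells, 3 si-NC and 3 si-SRSF11 samples by the deposited labels, was sequenced by the authors, who deposited a table of raw read counts, 1 column per library, without normalization or a filter. The submitters' processing notes name hg38, and the aligner, the counting program and the strand setting are not given in the sources used here. One drawing of the study puts the library names under the opposite conditions, and the labels were used. Gene names, bounds and exons were those of GENCODE 29 (Ensembl 94).

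Genes that reached 10 counts in 3 or more libraries were scaled by TMM and tested with edgeR (version 4.0.16, R version 4.3.3, limma version 3.58.1; glmQLFit and glmQLFTest on condition), with Benjamini-Hochberg adjustment over all 15801 tested genes and an adjusted p under 0.05 as the threshold. Standard errors came from the quasi-likelihood F statistic. CPM used TMM-scaled library sizes, and CPM per kb divided the mean by the exon length in the table. The summed levels of cell type markers are the exception, scaled by total counts without TMM. Ratios within a library were compared with a two-sided exact permutation test. The fit was tested on simulated data. Hairpins were searched in GENCODE 29 transcripts, with G-U pairs allowed.

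Alternatives were DESeq2 (version 1.42.0), other scalings and filters, a block for the replicate number, protein-coding genes only, other windows around BEST1, and each library left out. The window without FTH1 was added after the data were seen. The members and lists were chosen with earlier results of these data known. Named are the 10 members, SRSF11, at most 6 genes per list with the smallest adjusted p under 0.05 and the defining genes of a step, the bestrophins, the neighbours of BEST1 that passed and the 4 nearest on either side, the 3 ferritin pseudogenes with most counts per parent, and the 5 genes most like BEST1 and FTH1. The value of 1 gene that this rule names is not reported here. Splicing cannot be read from gene counts and was left out.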

Additional observations from a re-analysis of the deposited data

How the results depend on the processing

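Over 14 alternatives the log2 fold change of BEST1 ranged from -1.45 to -1.20, that of FTH1 from -0.34 to -0.22, that of FTL from -0.26 to -0.17, that of TFRC from 0.34 to 0.40 and that of HMOX1 from -0.46 to -0.35, and the 4 tested ones of these passed in all of them. IREB2 kept its direction and passed in 7 of 14. It was lost with scaling by library size alone (adjusted p = 0.074) and in DESeq2 (adjusted p = 0.054) beside the single-library fits given above. SLC11A2 passed with scaling by library size alone (adjusted p = 0.027), with a minimum of 50 counts (adjusted p = 0.049) and with protein-coding genes only (adjusted p = 0.045). The number of members other than BEST1 that passed was 4 in DESeq2, and with single libraries left out it was 4 to 5. The number of iron handling genes that were higher went from 13 to 8 with scaling by library size alone and to 8 in DESeq2, and ranged from 7 to 11 with single libraries left out; the number lower ranged from 11 to 17. Scaling by library size alone put the split of all called genes at 1588 higher and 2286 lower, in place of 2081 and 1804, with a median log2 fold change of -0.03. The cause of these shifts was not tested. The number of BEST1 neighbours that passed was 4 within 200 kb, 10 within 1000 kb, which holds more genes, and 3 without FTH1, and ranged from 3 to 4 with single libraries left out. Conditions share replicate numbers, but same-numbered libraries deviated together with r of only 0.015, 0.036 and 0.040, so the numbers were not taken as pairs. Each library did correlate best with its own number, a hint from the data. The study speaks of pairs of samples without saying that a number marks a pair. With the replicate block, 4036 genes passed in place of 3885, and the numbers of members (5), of higher (13) and lower (15) iron handling genes and of neighbours (4) were the same. At this depth SLC40A1, HAMP, CP and TF could not be compared.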

Other observations

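Beyond the bestrophins, the list of calcium-activated chloride channels and their relatives held 19 genes other than BEST1, of which 9 were tested, 2 were higher and 1 was lower. This is 33.3%, where 24.6% of all tested genes passed. ANO8, of the anoctamin family, stood at 71.2, 75.7 and 76.1 CPM in si-NC and at 58.0, 56.3 and 58.4 CPM in si-SRSF11, a log2 fold change of -0.37 (SE 0.055, edgeR adjusted p = 3.6e-05). TTYH2 and TTYH3, of the tweety family, had log2 fold changes of 0.28 (edgeR adjusted p = 0.0087) and 0.14 (edgeR adjusted p = 0.033). The call of TTYH3 was lost with scaling by library size alone and with no filter on low counts. It was also lost without si-NC replicate 1 or 2 or si-SRSF11 replicate 1 or 2 (adjusted p up to 0.14). ANO1, the main calcium-activated chloride channel of many epithelia, stood at 12.5 ± 1.08 CPM in si-NC and 14.6 ± 1.28 CPM in si-SRSF11 (SD, n = 3 each; edgeR adjusted p = 0.13).

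Markers of other cell types that handle much iron were low in every library. The 12 erythroid markers summed to 20.9 to 25.98 CPM in si-NC and to 16.2 to 19.9 CPM in si-SRSF11, with 5 of them at 0 throughout, and EPOR, which made up most of this sum, went from 23.2 ± 2.68 to 16.9 ± 2.30 CPM (SD, n = 3 each; log2 fold change -0.45, edgeR adjusted p = 0.0030). The 10 macrophage and leukocyte markers summed to 4.08 to 5.36 CPM and 5.04 to 5.94 CPM, with PTPRC, MSR1 and MRC1 at 0. The 10 fibroblast markers summed to 24.0 to 27.8 CPM and 27.7 to 32.8 CPM, with PDGFRA, LUM and DCN at 0, and PDGFRB was higher by 0.70 on the log2 scale (edgeR adjusted p = 0.00023). The colorectal transcription factors CDX2 and CDX1 were higher by 0.40 (edgeR adjusted p = 0.00038) and 0.31 (edgeR adjusted p = 0.0012) on the log2 scale.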
